A study of Mus musculus with 4 samples.

Results

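Chemokine ligands are small secreted proteins that steer leukocytes through G protein-coupled receptors, and dendritic cells (DC) use them to bring T cells and other leukocytes to the site of antigen presentation. Described here are 10 ligand genes, namely Ccl3, Ccl4, Ccl5, Ccl6, Ccl9, Ccl17, Ccl22, Cxcl9, Cxcl10 and Cxcl16, out of 19938 genes that had a probe set with their symbol alone. They were picked by name as ligands that DC make, with earlier results of these data known, and each was measured by 1 probe set. The question was how they differ in splenic Esam DC when the transcription factor Runx3 is deleted.

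The data came from 4 arrays, 1 for each of 4 mice aged 6 weeks. The 2 cKO mice (genotype DCRunx3 -/-, obtained by crossing Runx3fl/fl mice to CD11c-Cre mice) carry the deletion wherever the CD11c promoter drives Cre, which is not confined to Esam DC. The 2 wt mice (DCRunx3 +/+) were their littermates, with 1 wt and 1 cKO mouse in each of 2 litters, and the study describes wt controls of other experiments as Runx3fl/fl, without stating it for these arrays. Esam cells were sorted from CD11c and MHC class II positive spleen cells with antibodies to Esam, CD4 and CD8, and no mouse was given any stimulus that the labels name. All levels below are RMA values on the log2 scale. A difference is the cKO mean minus the wt mean, also in log2, and ± gives the SD of the 2 mice of a genotype. The p-values measure the spread between the mice of a genotype, which come from different litters. Those from limma also draw on the spread pooled over all probe sets tested.

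Several facts about the arrays touch every result. The labels call all mice male, but Xist, the RNA of the inactive X chromosome, was high in the wt and cKO mice of litter 1 (12.75 and 12.78) and near background in those of litter 2 (5.15 and 5.19), so litter and this split cannot be told apart and each difference is also given within each litter. The Runx3 probe set was at 11.37 and 11.51 in wt and at 11.47 and 11.45 in cKO. Without the position of its probes relative to the deleted exons, these values are no check of the genotypes. The 6 genes listed for conventional DC were above 6.5, the study's limit for signal above background, on all arrays. The CD11c gene Itgax lay between 12.99 and 13.12 and Esam between 10.10 and 10.64. Zbtb46, a transcription factor of conventional DC, was at 9.55 and 9.70 in wt and at 9.21 and 9.48 in cKO (difference -0.28), and for Batf3 too (difference -0.29) both cKO arrays lay below both wt arrays.

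The ligands fall into groups by receptor. Cxcl9 and Cxcl10 are interferon-inducible and act on Cxcr3, a receptor of activated T cells and NK cells. Ccl17 and Ccl22 act on Ccr4, and Ccl22 is a typical DC product that attracts regulatory T cells. Ccl3, Ccl4 and Ccl5 are inflammatory ligands, of which Ccl3 and Ccl5 bind Ccr1. Ccl6 and Ccl9 are rodent ligands of myeloid cells, and Cxcl16 is made as a membrane protein that binds Cxcr6 and also takes up lipid.

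In RefSeq order (assembly GRCm38.p6, used for gene order and promoter sequence) Ccl5, Ccl9, Ccl6, Ccl3 and Ccl4 are consecutive protein-coding genes on chromosome 11, Ccl22 and Ccl17 on chromosome 8 are separated by Cx3cl1, and Cxcl9 and Cxcl10 on chromosome 5 are separated by Art3. RefSeq promoter windows were at hand for 7 of the ligands, and the 250 bases before the gene start were searched on both strands for 3 kinds of motif. The core bound by Runx proteins, TGTGGT, was present in 2 of the 7 windows (Cxcl9, starting 106 bases before the gene start, and Ccl3, starting 122 bases before it), beside 14% of all 32851 windows. The interferon-stimulated response element, 2 copies of GAAA around 2 free bases, was present in 1 (Cxcl10, starting 213 bases before the gene start), beside 2.98% of all windows. The kappaB element was searched in a strict and a general form. The strict form, GGGA and TTTCC around 1 free base, was in 0 of the 7, beside 0.356% of all windows. The general consensus, searched after the windows had been seen, was in 2 of the 7 (Cxcl10 and Ccl9), beside 7.25%. In Cxcl10 it began 159, 104 and 103 bases before the gene start, with the last pair of matches overlapping, and no other motifs overlapped. A match of letters is not a measured binding site.

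Of these windows, 3 are shown because Cxcl9 and Cxcl10 had the widest differences between genotypes, while Ccl3 carries the same Runx core as Cxcl9 and had a difference near 0. All are on the minus strand of GRCm38.p6, are written 5′ to 3′ up to the base before the gene start, and have the matched motifs in capitals (the Runx core in Cxcl9 and Ccl3, and in Cxcl10 first the interferon-stimulated response element, then the general kappaB matches). The positions are chr5:92328080-92328329 for Cxcl9, chr5:92348890-92349139 for Cxcl10 and chr11:83649379-83649628 for Ccl3.
Cxcl9: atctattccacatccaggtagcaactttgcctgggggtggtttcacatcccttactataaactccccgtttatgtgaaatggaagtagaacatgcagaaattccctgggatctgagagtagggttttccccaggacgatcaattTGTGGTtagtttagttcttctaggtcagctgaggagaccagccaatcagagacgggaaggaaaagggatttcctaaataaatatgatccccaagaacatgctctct
Cxcl10: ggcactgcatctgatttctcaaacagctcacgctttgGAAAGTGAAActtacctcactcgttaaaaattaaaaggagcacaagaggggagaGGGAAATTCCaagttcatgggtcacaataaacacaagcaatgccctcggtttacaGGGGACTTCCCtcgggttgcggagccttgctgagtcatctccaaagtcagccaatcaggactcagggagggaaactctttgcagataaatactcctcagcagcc
Ccl3: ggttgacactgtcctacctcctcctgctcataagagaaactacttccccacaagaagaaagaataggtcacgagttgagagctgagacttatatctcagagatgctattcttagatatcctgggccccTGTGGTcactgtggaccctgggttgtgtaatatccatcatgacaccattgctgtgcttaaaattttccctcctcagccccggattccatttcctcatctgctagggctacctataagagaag

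A probe set was tested if it reached the limit of 6.5 on at least 1 array. Of the 10 ligands, 9 were tested. Ccl17 was under the limit on all 4 arrays and Ccl4 passed it on 1 array, wt replicate 1. The remaining 8 were above it on every array.

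Cxcl9 had the widest difference. It was at 10.84 and 10.44 in wt and at 11.73 and 11.90 in cKO, so both cKO arrays lay above both wt arrays. The group values were 10.64 ± 0.28 and 11.81 ± 0.12, a difference of 1.18 (standard error 0.17, 2.26-fold, 95% interval 0.72 to 1.63, limma adjusted p = 0.223). Within litters the difference was 0.89 in litter 1 and 1.46 in litter 2. The Runx core of the Cxcl9 window shown above also stands before Ccl3, whose values are given further on. Whether the core has a part in the values of either gene was not tested.

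Cxcl10, the other Cxcr3 ligand, was at 9.89 and 8.95 in wt and at 10.23 and 10.31 in cKO. The groups did not overlap, but the wt mice were 0.94 apart, while cKO replicate 1 minus cKO replicate 2 was -0.08. The difference was 0.85 (standard error 0.34, 1.80-fold, 95% interval -0.07 to 1.77, limma adjusted p = 0.554). It was 0.34 in litter 1 and 1.36 in litter 2. Without wt replicate 2 the difference was 0.38, and without wt replicate 1 it was 1.32.

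Ccl22 was at 7.72 and 7.02 in wt and at 8.33 and 7.81 in cKO. In both genotypes the litter 2 mouse was the lower one and the lower cKO value lay just above the higher wt value. The difference was 0.70 (standard error 0.31, 1.62-fold, 95% interval -0.15 to 1.54, limma adjusted p = 0.601), with 0.61 in litter 1 and 0.79 in litter 2. Single mice moved it, to 0.35 without wt replicate 2, 0.44 without cKO replicate 1 and 1.05 without wt replicate 1. With the litter as a replicate block the standard error fell to 0.10, yet the adjusted p was 0.306. Ccl17, its partner on Ccr4, was at 5.46 and 5.36 in wt and at 5.64 and 5.56 in cKO, all under the limit, and no change is read from it.

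Ccl9 and Ccl6, the rodent myeloid ligands, are neighbours on chromosome 11. Ccl9 was at 8.35 and 7.79 in wt and at 8.58 and 8.74 in cKO, a difference of 0.59 (standard error 0.22, limma adjusted p = 0.535). Ccl6 was at 8.42 and 8.13 in wt and at 8.67 and 8.84 in cKO, a difference of 0.48 (standard error 0.14, limma adjusted p = 0.463). For both genes the cKO arrays lay above the wt arrays, with the smaller difference in litter 1 (0.23 and 0.25) and the larger in litter 2 (0.95 and 0.71). Ccl9 differed by 0.31 when wt replicate 2 was left out and by 0.87 when wt replicate 1 was.

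The inflammatory ligands on either side of that pair had differences nearer 0. Ccl5 was at 13.02 and 12.90 in wt and at 13.02 and 13.14 in cKO, near the top of the array's range, where differences can be compressed. The mice of litter 1 were equal to 2 decimals, so its groups barely stood apart, and the difference was 0.12 (95% interval -0.15 to 0.39, limma adjusted p = 0.789). Ccl3 was at 11.30 and 10.91 in wt and at 10.96 and 10.94 in cKO, so the cKO values lay between the wt values, and the difference was -0.16 (95% interval -0.59 to 0.27, limma adjusted p = 0.833). Ccl4 was at 6.56 and 6.23 in wt and at 6.45 and 6.21 in cKO, around the limit, with a difference of -0.07 (95% interval -0.51 to 0.37, limma adjusted p = 0.940). The intervals show how far these genes could still differ, so equal levels in both genotypes are not shown. Thus within the run of 5 neighbouring genes the adjacent pair Ccl9 and Ccl6 differed by 0.59 and 0.48. Ccl5, Ccl3 and Ccl4 differed by 0.12, -0.16 and -0.07. Whether neighbours differ from each other was not tested.

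Cxcl16 was at 10.25 and 9.43 in wt and at 10.34 and 10.09 in cKO. The wt mouse of litter 2 stood apart from the other 3 mice, and the groups overlapped. The difference was 0.37 (95% interval -0.46 to 1.20, limma adjusted p = 0.792), with 0.09 in litter 1 and 0.65 in litter 2, and it was -0.04 without wt replicate 2.

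**Figure D1:**
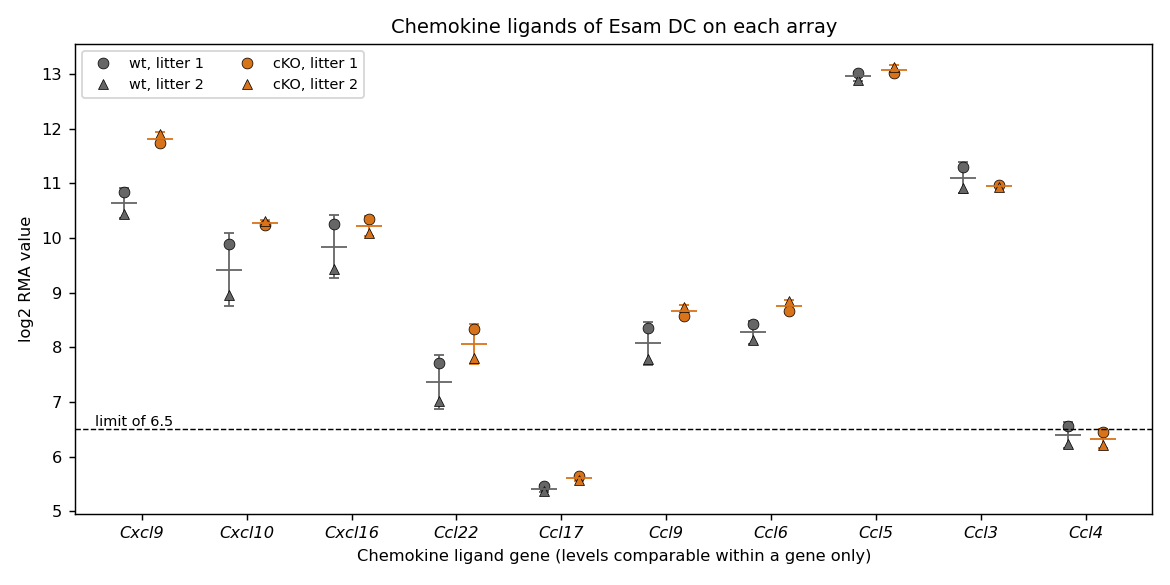
Log2 RMA value (y axis) of each of the 10 chemokine ligand genes (x axis) on each array, with circles for litter 1, triangles for litter 2, grey for wt and orange for cKO, the mean as a bar and the SD of 2 mice as an error bar. Both cKO arrays of Cxcl9 (11.73 and 11.90) lie above both wt arrays (10.84 and 10.44), while Ccl17 lies under the limit of 6.5 (dashed line) on all arrays.

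Counted over the ligands, none of the 9 tested passed limma's adjusted threshold of 0.05, as was so for 0% of all 18889 probe sets tested. An unadjusted p under 0.05 was reached by 2 of the 9, Cxcl9 and Ccl6, beside 9.38% of all probe sets. The study's own thresholds were an absolute fold of at least 1.5 and an unadjusted p of at most 0.05 in a one-way test. Cxcl9 alone of the 9 passed them, upwards, beside 0.9% of all probe sets that passed upwards. None passed downwards, beside 0.514%. Cxcl10, Ccl22 and Ccl9 reached the fold of 1.5 too, but did not pass the one-way test. With the litter as a replicate block, 0 ligands passed the study's thresholds and the difference of Cxcl9 stayed at 1.18 (limma adjusted p = 0.307). Cxcl9 did not pass them with any of the 4 mice left out, when its difference ran from 0.98 to 1.37.

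Both cKO arrays lay above both wt arrays for 6 of the 9 ligands tested (Cxcl9, Cxcl10, Ccl22, Ccl9, Ccl6 and Ccl5), beside 16.4% of all probe sets. Both lay below for 0 of the 9, beside 23.7%. The median difference over the 9 was 0.48, and over all probe sets tested it was -0.02. These counts describe ligands that were picked with results of these data known, and the ligands share the same 4 mice.

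**Figure D2:**
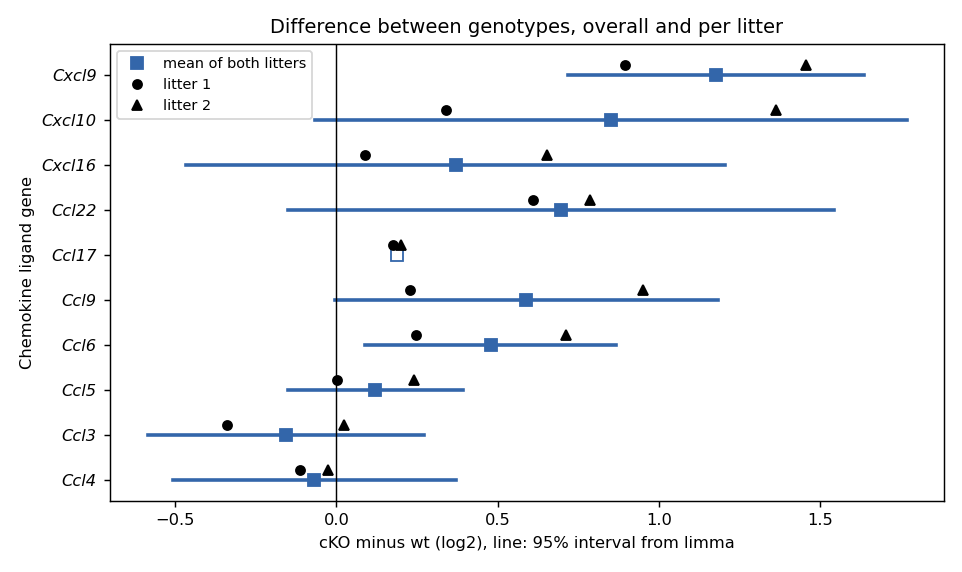
Difference cKO minus wt (x axis, log2) for each chemokine ligand gene (y axis), with squares for the mean of both litters, lines for limma's 95% interval, and circles and triangles for litters 1 and 2. Only for Cxcl9 (0.72 to 1.63) and Ccl6 (0.09 to 0.87) does the interval lie above 0, and the open square is Ccl17, which was not tested.

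The ligands also differed between the 2 wt mice. These mice come from different litters and also differ in Xist and Kdm5d, so mouse, litter and sex cannot be told apart in this gap. All 9 tested ligands were higher in wt replicate 1 than in wt replicate 2, beside 59% of all probe sets tested. The median size of the gap was 0.40 over the ligands and 0.16 over all probe sets. Between the 2 cKO mice the median size was 0.17 over the ligands and 0.10 over all probe sets, and the wt gap was the wider one for 9 of the 9 ligands and for 64.4% of all probe sets. For Cxcl10, Cxcl16, Ccl3 and Ccl4 the gap between the wt mice (0.94, 0.82, 0.39 and 0.33) was wider than the size of the difference between genotypes. For Ccl22 and Ccl5 the gap and the difference were equal to 2 decimals (0.70 and 0.12), and for Cxcl9, Ccl9 and Ccl6 the difference was the wider one. Leaving out wt replicate 1 brought the median difference of the ligands to 0.78, and leaving out wt replicate 2 to 0.31.

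**Figure D3:**
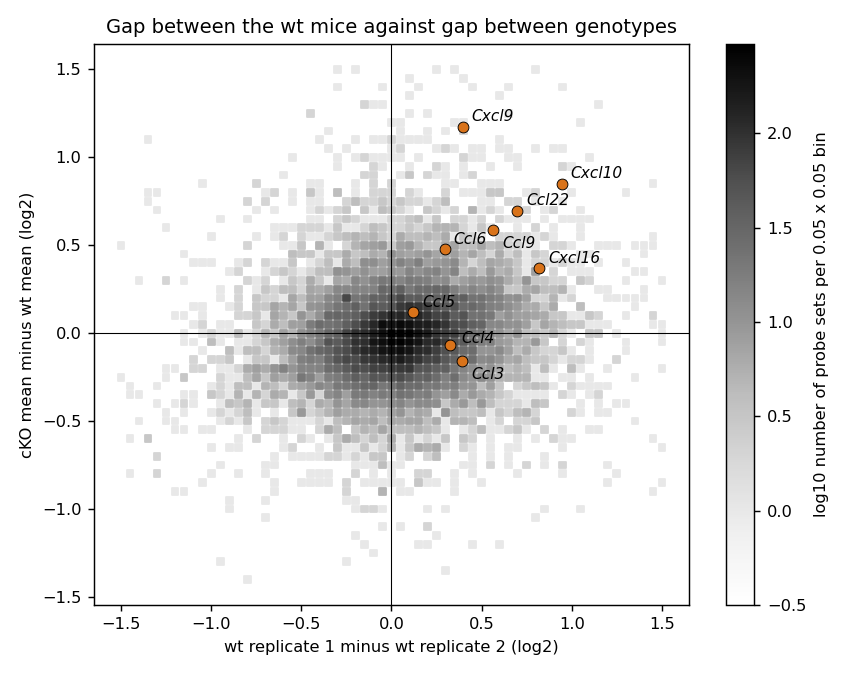
Difference between the 2 wt mice (x axis, log2) against the difference between cKO and wt means (y axis, log2), with the number of all tested probe sets per bin in grey (log10 scale, 71 probe sets outside the axes not drawn) and the 9 tested ligands in orange. All 9 ligands lie right of 0, at wt gaps from 0.12 (Ccl5) to 0.94 (Cxcl10), and Cxcl9 is the highest of them.

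The array held 26 other chemokine ligand genes with a probe set of their own, and 23 of these stayed under the limit on every array, among them Ccl2, Ccl7, Ccl8, Cxcl1, Cxcl2 and Cxcl11. Of the 3 tested, 0 passed the study's thresholds, beside 0.9% of all probe sets upwards and 0.514% downwards. Cxcl13, which guides B cells into follicles, was at 8.37 and 8.02 in wt and at 8.85 and 8.71 in cKO (difference 0.59, limma adjusted p = 0.416). Ccl19, a ligand of Ccr7, was at 6.92 and 6.42 in wt and at 7.39 and 7.28 in cKO (difference 0.66, limma adjusted p = 0.457). Ccl19 has 5 probe sets, 2 of which hold the same values on all arrays, so near-identical copies may share signal, and their differences ran from 0.66 to 0.82. Ccl25, which acts on Ccr9, was at 7.30 and 6.86 in wt and at 6.98 and 7.24 in cKO (difference 0.03).

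Of the receptors that these ligands act on, Ccr1, Ccr4 and Cxcr6 were under the limit on all arrays. Cxcr3, the receptor of Cxcl9 and Cxcl10, was at 7.45 and 8.02 in wt and at 8.60 and 8.91 in cKO, a difference of 1.02 (standard error 0.24, 2.02-fold, limma adjusted p = 0.369). It did not pass the study's thresholds, although the groups did not overlap. Ccr3, a receptor of Ccl5, was at 7.37 and 8.13 in wt and at 8.44 and 8.81 in cKO (difference 0.87, limma adjusted p = 0.515). For both receptors the wt mouse of litter 2 was the higher of the wt mice, the reverse of the ligands. Among 9 other chemokine receptors tested, 2 passed the study's thresholds upwards (Xcr1, 2.64-fold, and Ccr2, 1.58-fold) and 1 downwards (Ccrl2, difference -0.74). The shares over all probe sets were 0.9% upwards and 0.514% downwards.

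Pathways known to switch on chemokine genes were read from lists. Over all probe sets tested, 0.9% passed the study's thresholds upwards and 0.514% downwards, so a count of 0 in lists this short says little about a pathway. Of 8 tested genes of the interferon-gamma pathway 0 passed the study's thresholds, and their differences ran from -0.17 (Stat2) to 0.17 (Ifngr1), with Irf1, a transcription factor that acts on Cxcl9 and Cxcl10, at 11.17 and 11.15 in wt and at 11.15 and 11.01 in cKO. Of 12 NF-kappaB genes 0 passed, with a median difference of -0.02. Tnf was at 9.81 and 9.20 in wt and at 9.32 and 9.22 in cKO, and Il1b at 11.90 and 11.50 in wt and at 12.26 and 12.12 in cKO (difference 0.49). Of 11 immediate early genes, which report handling of the cells as well as signalling, 0 passed, and the median difference was 0.07. Jun was at 10.62 in wt replicate 1 and at 11.61 in wt replicate 2, so here the wt mice differed in the direction opposite to the ligands. In the short list of the interleukin 4 and Irf4 axis, tied to Ccl17 and Ccl22, Il13ra1 passed the study's thresholds (2.21-fold), and the other 4 did not, with Irf4 at -0.26.

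Proteases can trim or shed chemokines. Dpp4, which clips the N terminus of Cxcl9, Cxcl10 and Ccl22, was between 12.67 and 12.80 on all arrays, and Adam10, which sheds Cxcl16, between 10.20 and 10.29. Mmp12, a macrophage elastase, was at 11.12 and 11.11 in wt and at 10.57 and 10.54 in cKO (difference -0.56, 95% interval -0.78 to -0.34, limma adjusted p = 0.223), with both cKO arrays below both wt arrays and a fold of 1.47, short of the fold of 1.5. Mmp14, a membrane metalloprotease, was at 7.63 and 6.68 in wt and at 8.88 and 8.22 in cKO (difference 1.40, limma adjusted p = 0.460). None of the 6 proteases passed the study's thresholds, beside 0.9% of all probe sets upwards and 0.514% downwards.

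Markers of other cell types moved with the genotype too. Over all probe sets tested, 0.9% passed the study's thresholds upwards and 0.514% downwards. The study names the sorted cells CD4+ and Esam-high and stained for CD8, a gate that should leave out CD8 positive DC. In bulk RNA, more cells of a type and more RNA per cell cannot be told apart. Of 10 markers of cDC1, the CD8 positive cross-presenting DC, 7 passed the study's thresholds upwards, with mean log2 levels of 9.12 and 8.92 in wt and 9.96 and 9.95 in cKO. Among them Cd8a, the gene of the stained CD8, was at 9.49 and 9.08 in wt and at 10.63 and 10.88 in cKO. Batf3, a transcription factor also in the cDC1 list, was the 1 marker of it that went the other way (difference -0.29), with both cKO arrays below both wt arrays. Of 9 tested macrophage markers 2 passed upwards (C1qb and Spic), with mean levels of 9.11 and 9.67 in wt and a median difference of 0.73, and Vsig4 was under the limit. Of 6 monocyte markers 3 passed upwards, with means of 9.29 and 9.31 in wt and 10.07 and 10.17 in cKO. Of the neutrophil markers Csf3r passed upwards (difference 1.28), while S100a8, S100a9 and Ly6g were under the limit. Of 5 plasmacytoid DC markers 0 passed, with a median difference of 0.42, and of 7 markers of Esam-high cDC2 the integrin gene Itgam passed upwards (difference 0.75). No marker of these lists that was tested passed downwards, and their part in the values of Cxcl9, Cxcl10, Ccl6 and Ccl9 was not tested.

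Other lists moved with the gap between the wt mice. Markers of migratory or mature DC, a state in which Ccl22 and Ccl17 are made, were higher in wt replicate 1 for 8 of 8 genes, with mean levels of 10.65 and 10.03 in wt and 10.40 and 10.08 in cKO. Fscn1, the actin bundling protein of mature DC, was at 11.78 and 10.95 in wt and at 11.35 and 10.88 in cKO. None of the 8 passed the study's thresholds between genotypes, beside 0.9% of all probe sets upwards and 0.514% downwards. Of the B cell markers tested, 3 of 3 were higher in wt replicate 1 (mean levels 9.32 and 8.79 in wt, 9.58 and 9.38 in cKO). These 3 were also higher in cKO than in wt, with a median difference of 0.43. Both cKO arrays lay above both wt arrays for 2 of the 3, beside 16.4% of all probe sets, and 0 passed the study's thresholds. All 8 T and NK cell markers and all 4 platelet markers with a probe set were under the limit, T and NK markers at no more than 6.39. The part of the mature DC and B cell markers in the gap between the wt mice was not tested.

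**Figure D4:**
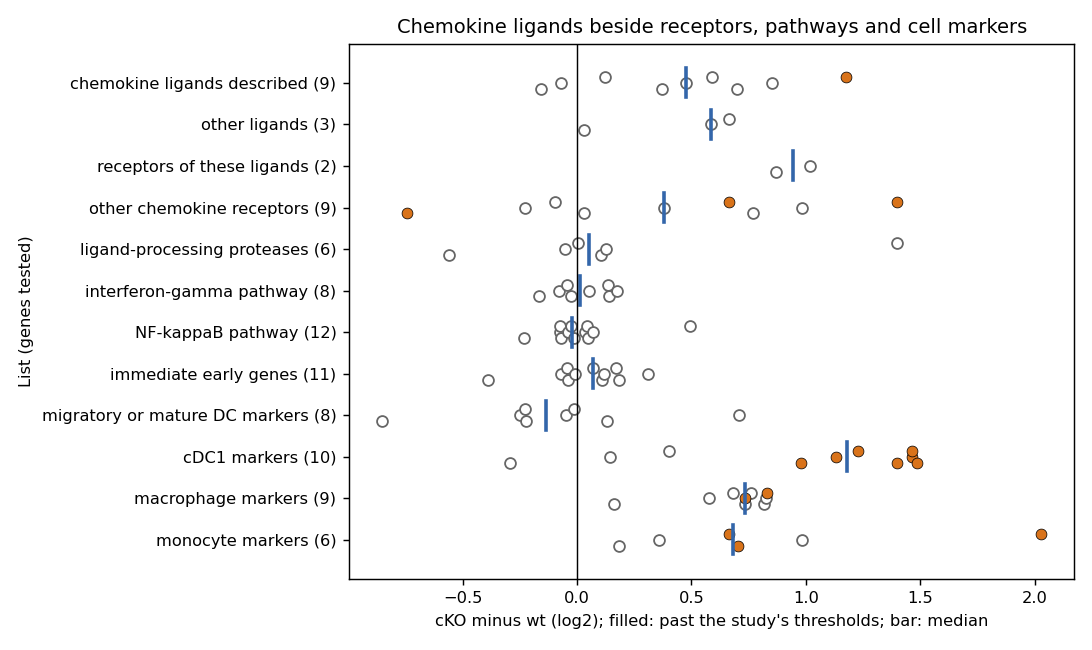
Difference cKO minus wt (x axis, log2) of every tested gene in 12 lists (y axis, number of tested genes in brackets), with filled points for genes past the study's thresholds and a blue bar for each list's median. The medians are 0.48 for the ligands described, 0.01 for the interferon-gamma pathway, -0.02 for the NF-kappaB pathway, 1.18 for cDC1 markers and 0.73 for macrophage markers, and some genes sit in more than 1 list.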

How the data were processed

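RNA of sorted splenic Esam DC from 4 mice was hybridised to Affymetrix arrays, 1 array per mouse. The authors made the deposited log2 values in Partek by RMA with GC correction (versions not given), so background correction and normalization between arrays were done before deposit. The submitters' processing notes name mm9. Depth does not apply to arrays, and their number limits the precision. No detection value was used here beyond the limit of 6.5 named in the study's methods. Such processing compresses differences at low and at very high signal.

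Of 35399 probe sets, 21789 carried 1 gene symbol in the platform annotation, and each gene was represented by its brightest one. Levels were not compared between genes. Groups (wt and cKO) and litters came from the labels, and no column was left without a sample. Probe sets reaching 6.5 on at least 1 array (18889) were tested with limma 3.58.1 in R 4.3.3 (lmFit and eBayes, two-sided, Benjamini-Hochberg over all of them), and with the one-way test and fold of the study's methods. Standard errors and 95% intervals are limma's moderated ones. The mice are separate animals. Wt and cKO deviations from their group means correlated within litters (r = 0.27), and the labels state the litters, so the litter served as a replicate block in an alternative fit. The other alternatives were the filter on low values, 1 probe set per gene, median centring, a trended prior, limma's p within the study's thresholds and leaving out each mouse. A run meant for the mean of a gene's probe sets averaged nothing and repeated the fit reported. The general kappaB consensus was added after seeing the data. The procedure was tested on simulated data.

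The ligands, gene lists and alternatives were chosen with earlier results of these data known. All 10 ligands are named, and from the other lists genes past the study's thresholds, up to 4 more by smallest p, and defining markers. Stat2, Ifngr1, Irf1, Tnf, Jun, Irf4, Ccl25, Dpp4, Adam10, Fscn1 and the ligands listed as under the limit were named after their values were seen where that rule did not name them.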

Additional observations from a re-analysis of the deposited data

Results flagged for a closer look

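Ccl3 differed between genotypes by -0.34 in litter 1 and by 0.03 in litter 2, so its 2 within-litter differences had opposite signs. With 1 mouse per genotype in each litter this difference between litters was not tested, and the value of litter 2 is small beside the gap of 0.39 between the wt mice.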

How the results depend on the processing

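No ligand passed limma's adjusted threshold under any alternative run, and the smallest adjusted p of Cxcl9 was 0.0664 (1 probe set per gene, range over its alternatives up to 0.899). The number past the study's thresholds was 1 (Cxcl9) in the fit reported and 0 with the replicate block, and 0 to 1 with 1 mouse left out, the 1 then being Cxcl10 without wt replicate 1. The methods' test then has 1 residual degree of freedom less. Groups lay apart upwards for 6 ligands with the replicate block and for 6 to 8 with 1 mouse left out, and downwards for 0 to 2. The median difference was 0.31 to 0.78 with 1 mouse left out. Signs turned for Ccl3 without wt replicate 1 (range with 1 mouse left out -0.35 to 0.039), for Ccl4 without wt replicate 1 and, at 0.05, without cKO replicate 2 (range -0.23 to 0.095), and for Cxcl16 without wt replicate 2 (range -0.039 to 0.78). Over the whole table, 0 probe sets passed the adjusted threshold in the fit reported, 1 with the limit of 6.5 on all 4 arrays, 42 with 1 probe set per gene and 2 with a trended prior. The study's thresholds passed 267, 135 with the replicate block, 493 with limma's p, and 113 to 281 with 1 mouse left out. Ccl17 was tested only without a filter (difference 0.19, adjusted p = 0.671). Each ligand had 1 probe set, so a mean over probe sets could not change its values. The run under that name averaged no other gene either and repeated the fit reported, so it says nothing about stability. With the replicate block Ccl22 also reached an unadjusted limma p under 0.05 (0.0039, beside 0.0848 without the block). The block changed no adjusted call of a ligand and no count of groups lying apart. In all, 174 of the recomputed values kept their direction and side of the threshold or stayed within 1.5 times, while 14 moved and 4 turned sign. Part of the 174 could not change. The replicate block leaves mean differences as they are in this balanced design, and 1 run repeated the fit reported. With 2 mice per group, an array signal near the limit (Ccl4, Ccl17) or near the top (Ccl5) bounds what can be seen.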
